A study of Mus musculus with 4 samples.

Results

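The genes of major histocompatibility complex (MHC) class II antigen presentation were followed in RNA sequencing of whole mouse lung. The group held 10 genes of the 21931 in the deposited table, chosen by name: the invariant chain Cd74, the classical chains H2-Aa, H2-Ab1 and H2-Eb1, the peptide editor genes H2-DMa, H2-DMb1 and H2-DMb2, the editor's inhibitor genes H2-Oa and H2-Ob, and the transactivator Ciita. All 10 were in the table, and all 10 passed the filter on low counts. The series set lungs lacking Dnah9, which encodes a dynein motor chain of motile cilia, against other genotypes. It comprised 2 libraries from Dnah9 knockout mice, 1 labelled Hez, a genotype name left unexplained in the labels, and 1 from a wild-type mouse. All mice were of the C57BL6 strain, 2 months old and given no treatment. The deleted part of Dnah9 and the number of animals behind each library were not stated in the sources used.

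MHC class II molecules are pairs of an alpha and a beta chain that carry peptides from engulfed proteins to the cell surface, where CD4 T cells read them. New pairs are held and escorted by the invariant chain, whose gene is Cd74. In endosomes the invariant chain is cut down by proteases such as cathepsin S, and H2-DM then exchanges its remnant for a stable peptide, an exchange that H2-O restrains, mainly in B cells. Ciita binds no DNA by itself: it docks on the RFX, CREB and NF-Y proteins that sit on the X and Y boxes of class II promoters. In mouse lung, B cells, dendritic cells and macrophages make class II molecules, and so do alveolar type 2 cells, the epithelial cells that make surfactant.

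Of the 10 genes, 7 had an entry among RefSeq promoters of build GRCm38.p6. The stretches that hold the Y box are shown because this box is where NF-Y, one of the proteins that Ciita docks on, binds in class II promoters. Each stretch is given 5′ to 3′ in the direction of the gene and ends before its annotated start. Capitals mark the Y box core ATTGG, and ACNGATG, a core of the X1 box to which RFX binds. All lie on chromosome 17, H2-Aa on the minus strand and the others on the plus strand, at chr17:34287857-34287916, chr17:34305763-34305822, chr17:34153085-34153144, chr17:34145114-34145173, chr17:34092291-34092350 and chr17:34238803-34238862 in the order shown.
H2-Aa: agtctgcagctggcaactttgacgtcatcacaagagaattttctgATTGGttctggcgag
H2-Eb1: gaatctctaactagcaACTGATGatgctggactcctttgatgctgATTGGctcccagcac
H2-DMb1: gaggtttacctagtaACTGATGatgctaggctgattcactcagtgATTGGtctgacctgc
H2-DMb2: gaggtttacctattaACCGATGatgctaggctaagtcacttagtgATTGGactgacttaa
H2-Oa: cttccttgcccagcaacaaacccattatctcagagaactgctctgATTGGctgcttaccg
H2-Ob: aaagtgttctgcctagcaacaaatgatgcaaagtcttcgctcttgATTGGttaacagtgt
In these 6 promoters the Y box core ended 38 to 85 bases before the start. In H2-Eb1, H2-DMb1 and H2-DMb2 the X1 core stood 22, 23 and 23 bases ahead of it. H2-DMa had 2 annotated starts, and ATTGG was found 193 bases before 1 of them and not before the other. On either strand of the 250 bases before the start, ATTGG occurred in 7 of 8 member promoters (87.5%) and in 33.8% of all 32851 promoters. ACNGATG occurred in 5 of 8 (62.5%) and in 8.31% of all promoters. H2-Aa and H2-Oa were among the 5, with this string outside the stretch shown or on the other strand. The pair, ACNGATG followed by ATTGG within 30 bases on the same strand, occurred in 3 of 8 (37.5%) against 0.21% of all promoters, or 69. The boxes are known from class II promoters, so the higher shares among members are a description and not a test. The 8 promoters cover 7 genes, and H2-DMb1 and H2-DMb2, which both hold the pair, are near-identical copies. A match of letters describes the sequence and does not show that a protein binds there. Lack of the exact string ACNGATG does not show that a promoter has no X box.

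**Figure D1:**
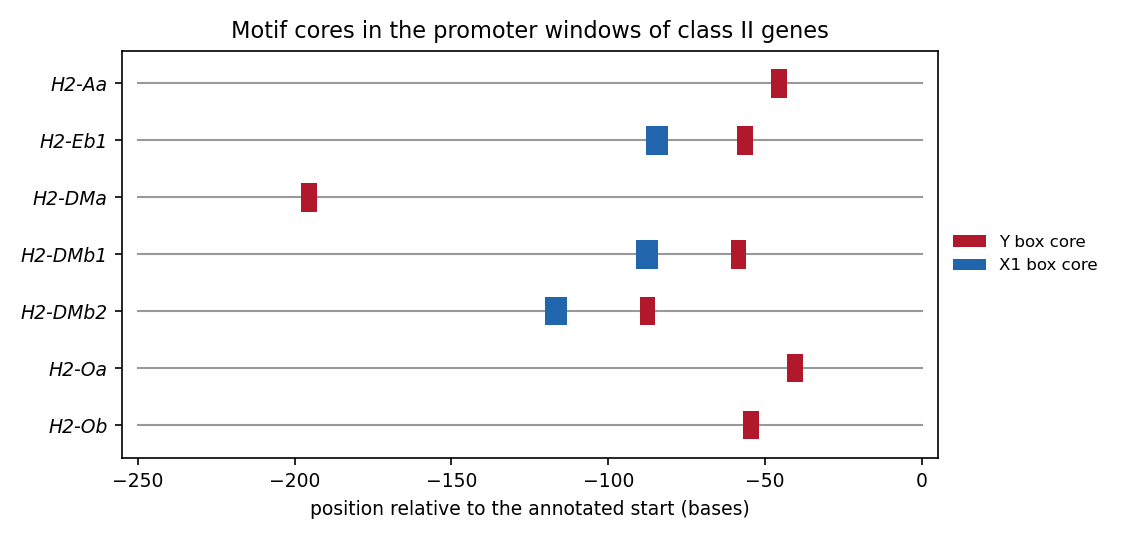
Positions of the Y box core (red) and the X1 box core (blue) on the gene's own strand, in bases before the annotated start, for 7 class II promoters. The X1 box core is drawn only where the Y box core follows it within 30 bases. The Y box core ends 38 to 85 bases before the start in all but H2-DMa, where it ends 193 bases before it.

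The labels were checked first. Dnah9 had 240 and 254 reads in the knockout libraries, 420 in the Hez library and 917 in the wild-type library. Library totals lay between 15860478 and 16553480 reads. The lung markers Sftpc, Scgb1a1, Ager, Cldn18 and Foxj1 summed to 28298 to 31182 CPM (reads scaled to a common library total, with TMM factors) in the 4 libraries. Within that list Foxj1, a transcription factor of ciliated cells, the cells that carry Dnah9, stood at 70.6 and 70.9 CPM in the knockouts, 68.4 in Hez and 103.7 in wild type. Its log2 fold was -0.55 against wild type (SE 0.0974, unadjusted p = 0.00047, edgeR adjusted p = 0.273). The part of these cells in the Dnah9 counts was not tested. Knockout 2 stood apart from the other libraries, with a chi-square per gene of 10.3 to 12.1 in its pairs against 8.23 to 8.68 among the others. The class II region was also looked at beside the strain label, which the counts of a single gene cannot establish. H2-Ea, the partner of H2-Eb1, is not transcribed in C57BL/6 mice because its promoter is deleted there, and it had 0 and 1 reads in the knockout libraries, 0 in Hez and 0 in wild type. A count of 0 allows up to 0.177 FPKM (reads scaled by gene length and library total) in knockout 1, 0.175 in Hez and 0.18 in wild type, where H2-Eb1 stood at 131, 105 and 120 FPKM.

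Taken as a group, class II transcripts stood higher in both knockout libraries than in the others. The 10 genes together took 0.192% and 0.202% of all reads in the knockout libraries, 0.148% in Hez and 0.167% in wild type. Their summed level was 1930 and 2016 CPM in the knockouts, 1486 in Hez and 1657 in wild type. Knockouts 1 and 2 thus stood at 116% and 122% of wild type, and Hez at 89.7%. In 8 of the 10 genes both knockout libraries lay above both the Hez and the wild-type library, which held for 17.5% of the 15055 genes tested. The exceptions were H2-Oa and H2-Ob. H2-DMa counted by a margin of 39.77 CPM in knockout 1 against 39.74 in wild type, and with library totals in place of TMM the count was 7 of 10, against 16.2% of all genes. Against wild type alone both knockouts lay above in 8 of 10 genes, against 33% of all genes, and below in 1, H2-Oa, against 33.4%. The 10 genes are used by overlapping sets of cells and are not independent observations, and in bulk tissue more cells of a type and more RNA per cell cannot be told apart.

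The edgeR quasi-likelihood test, adjusted over all genes tested, called 0 of the 10 in any comparison with the knockouts at an adjusted p below 0.05. Against wild type it called 0.0133% of all genes as higher and 0.0399% as lower, 0.0531% in all, against Hez 0.00664%, and against both together 0.0136%. Without adjustment, p lay below 0.05 with a higher level in the knockouts for 3 of 10 genes against wild type, where 1.81% of all genes did so, and with a lower level for 0 of 10, where 3.37% did. Against Hez the higher count was 8 of 10, against 2.5% of all genes, and the lower count 0 of 10, against 2.11%. It was higher against both together for 7 of 10, against 2.3%. The log2 fold was above 0 for 9 of 10 genes against wild type, where 51.1% of all genes were, for 10 of 10 against Hez, where 52.5% were, and for 10 of 10 against both together, where 49.1% were. The median log2 fold of the 10 genes was 0.26 against wild type, 0.42 against Hez and 0.29 against both together. Without knockout 2 these were 0.18, 0.42 and 0.25. Over all genes tested, with both knockouts, the medians were 0.0045, 0.0099 and -0.0026. The comparisons share the knockout libraries, and those with a lone library rest on the spread between 2 knockouts, so they are not independent of each other.

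**Figure D2:**
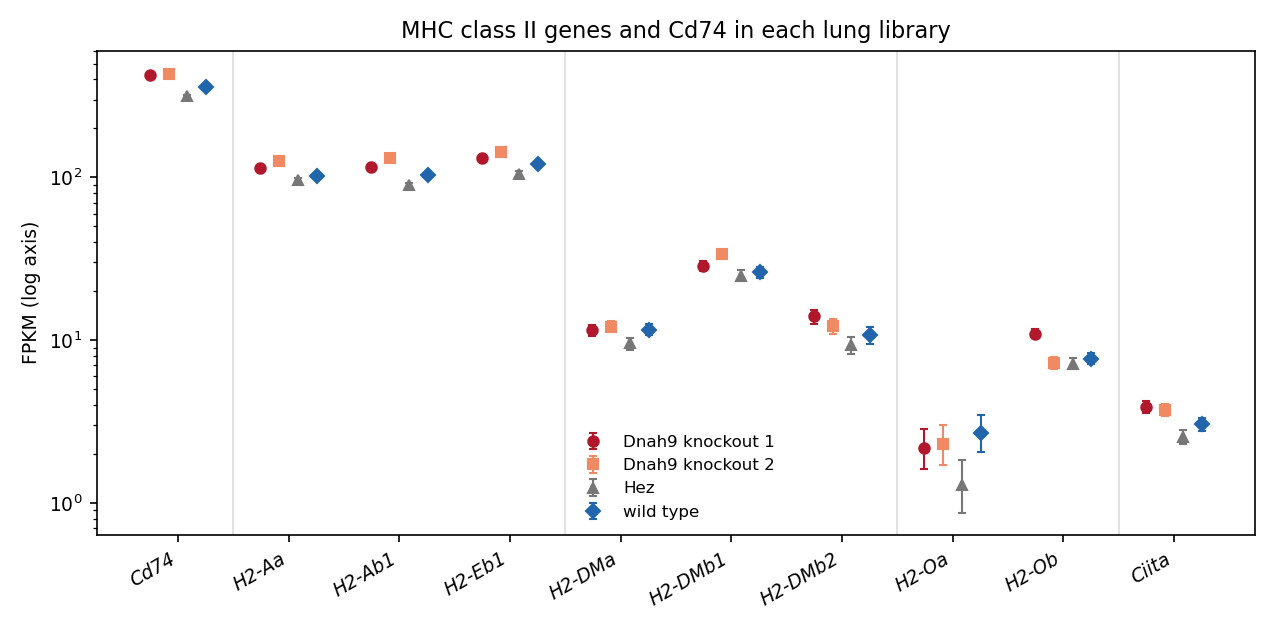
FPKM on a log axis of the 10 genes in the 4 libraries (knockout 1 and 2, Hez, wild type), with 95% exact Poisson intervals that cover counting error only. Both knockout points lie above the Hez and wild-type points in 7 genes, the exceptions being H2-Oa, H2-Ob and H2-DMa, whose knockout 1 and wild-type points are 11.45 and 11.6 FPKM.

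Cd74 (ENSMUSG00000024610, chromosome 18, 60936920 to 60945724 on GRCm39, plus strand) was the most abundant of the 10 genes per length. It stood at 429 and 432 FPKM in the knockout libraries, 315 in Hez and 360 in wild type, from 8748 to 11795 reads. The knockout libraries had overlapping 95% Poisson intervals, 421 to 437 and 424 to 440 FPKM, above those of Hez, 308 to 321, and wild type, 353 to 367. These intervals cover counting error only, and every pair of libraries, the knockouts included, differed by more than that over all genes. The knockouts averaged 430.4 ± 2.22 FPKM (SD, n = 2), 1.2 times the wild-type and 1.37 times the Hez value. The log2 fold was 0.27 against wild type (SE 0.0793, unadjusted p = 0.00921, edgeR adjusted p = 0.632). Against Hez it was 0.45 (SE 0.0799, unadjusted p = 0.000469, edgeR adjusted p = 0.441). Against both together it was 0.35 (SE 0.0789, edgeR adjusted p = 0.618). Over all genes, edgeR called 2 against both together and the DESeq2 Wald test called 34. In that last comparison the DESeq2 Wald test gave Cd74 an adjusted p = 0.0312, the 1 call of any of the 10 genes in the alternatives run, while the adjusted p of Cd74 under the others lay between 0.318 and 0.964.

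The classical chains followed the same order of libraries. H2-Aa (ENSMUSG00000036594, chromosome 17, 34501718 to 34506797, minus strand) encodes the alpha chain of the I-A molecule. Its level was 114 and 126 FPKM in the knockouts, 96.2 in Hez and 102 in wild type. H2-Ab1 (ENSMUSG00000073421, chromosome 17, 34476663 to 34488393, plus strand), the I-A beta chain, stood at 116 and 132 FPKM in the knockouts, 89.4 in Hez and 103 in wild type. H2-Eb1 (ENSMUSG00000060586, chromosome 17, 34524841 to 34535648, plus strand), the I-E beta chain, stood at 131 and 144 FPKM in the knockouts, 105 in Hez and 120 in wild type. For all 3 chains knockout 2 was highest, knockout 1 next, then wild type, then Hez.

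Against wild type the log2 folds of H2-Aa, H2-Ab1 and H2-Eb1 were 0.25 (SE 0.0951), 0.27 (SE 0.107) and 0.20 (SE 0.101), with edgeR adjusted p = 0.863, 0.895 and 0.996. Against Hez they were 0.32 (SE 0.0954), 0.47 (SE 0.108) and 0.38 (SE 0.102), with edgeR adjusted p = 0.854, 0.65 and 0.768. The balance among the chains moved less than their levels. The ratio of H2-Aa to H2-Ab1 in FPKM was 0.989 and 0.96 in the knockouts, 1.08 in Hez and 0.989 in wild type. These partner chains could therefore not be ranked against each other, as their order differed between libraries. Cd74 stood at 1.19 and 1.07 times the summed FPKM of the 3 chains in the knockouts, 1.08 times in Hez and 1.11 times in wild type.

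The transactivator Ciita (ENSMUSG00000022504, chromosome 16, 10297923 to 10346282, plus strand) was at a low level. It had 605 and 560 reads in the knockout libraries, 402 in Hez and 467 in wild type, or 3.87 and 3.70 FPKM, 2.55 FPKM and 3.04 FPKM. Both knockout values lay above the others, and the Hez value was the lowest. The log2 fold was 0.33 against wild type (SE 0.144, unadjusted p = 0.0509, edgeR adjusted p = 0.963). It was 0.57 against Hez (SE 0.146, unadjusted p = 0.00429, edgeR adjusted p = 0.717), and 0.44 against both together (SE 0.119, edgeR adjusted p = 0.689). Dexi, on the opposite strand, overlaps Ciita in the table's coordinates and had at most 377 reads. The strand setting of the counting is not given, so reads of this gene pair may not be separated.

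**Figure D3:**
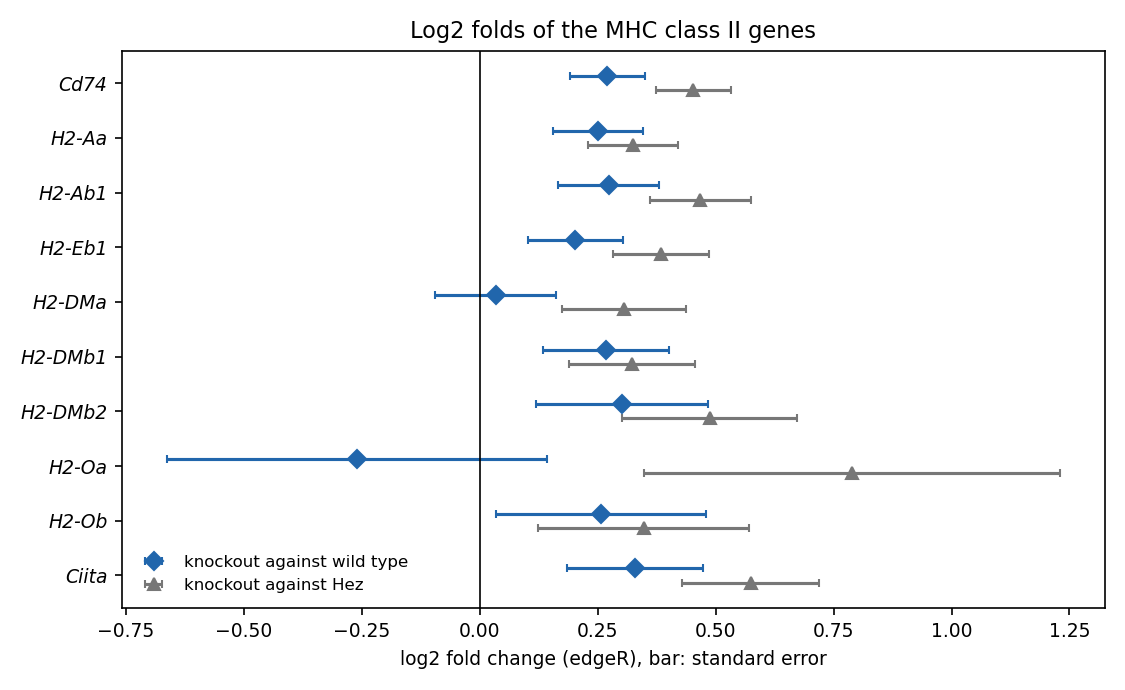
Log2 fold changes of the 10 genes from edgeR, for knockout against wild type (diamonds) and knockout against Hez (triangles), with standard errors as bars. All folds against Hez are positive, from 0.31 to 0.79, and 9 of 10 against wild type are, the exception being H2-Oa at -0.26.

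Genes of the peptide editor H2-DM stood below the classical chains in every library. H2-DMb1 (ENSMUSG00000079547, chromosome 17, 34372046 to 34379204), a beta chain, stood at 28.7 and 33.7 FPKM in the knockouts, 24.9 in Hez and 26.1 in wild type. H2-DMb2 (ENSMUSG00000037548, chromosome 17, 34362281 to 34370529), the second beta chain gene, stood at 14.0 and 12.2 FPKM in the knockouts, 9.34 in Hez and 10.7 in wild type. Because the 2 beta chain genes are near-identical copies, reads may be split between them. Their summed reads were 1189 and 1235 in the knockouts, 964 in Hez and 1008 in wild type. H2-DMb1 was the higher of the pair in all 4 libraries, by 2.05 to 2.77 times. The log2 folds of H2-DMb1 and H2-DMb2 were 0.27 (SE 0.133) and 0.30 (SE 0.183) against wild type, both with edgeR adjusted p = 0.996. Against Hez they were 0.32 (SE 0.134) and 0.49 (SE 0.185), both with edgeR adjusted p = 0.9997.

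H2-DMa (ENSMUSG00000037649, chromosome 17, 34338515 to 34358075), the alpha chain of the editor, did not keep the order of the beta chain genes. Its level was 11.45 and 12.1 FPKM in the knockouts, 9.53 in Hez and 11.6 in wild type, so the wild-type value lay between the knockouts and the Hez value lay below all. The log2 fold was 0.03 against wild type (SE 0.129, edgeR adjusted p = 0.996). Against Hez it was 0.31 (SE 0.131, unadjusted p = 0.0475, edgeR adjusted p = 0.9997). Brd2, a chromatin reader gene on the opposite strand, overlaps H2-DMa in the table's coordinates and had up to 4658 reads, so the H2-DMa count may hold reads of Brd2 or lose reads to it.

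The genes of H2-O, the inhibitor of the editor, were the 2 of the 10 that departed most from the common order. H2-Ob (ENSMUSG00000041538, chromosome 17, 34457877 to 34473388), the beta chain, had 965 and 618 reads in the knockouts, 638 in Hez and 666 in wild type. This was 10.9 and 7.24 FPKM in the knockouts, 7.16 in Hez and 7.69 in wild type. Knockout 1 alone was high, and knockout 2 lay below wild type. The log2 fold was 0.26 against wild type (SE 0.223, edgeR adjusted p = 0.996), and the value was -0.0798 without knockout 1 and 0.53 without knockout 2.

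The B cell marker Cd79a had the same order of libraries as H2-Ob, with knockout 1 highest, then wild type, knockout 2 and Hez. Cd79a, a signalling chain of the B cell receptor, stood at 29.9 and 19.9 FPKM in the knockouts, 18.5 in Hez and 20.7 in wild type. The 10 B cell markers summed to 278 and 199 CPM in the knockouts, 185.2 in Hez and 185.2 in wild type, with knockout 1 highest and none at 0 in all 4 libraries. Of these 10 markers 5 had the order of H2-Ob, Cd79a among them, and 5 had another, 4 of which were lowest in wild type. Knockout 1 was highest in 9 of 10. The part of B cells in the H2-Ob values was not tested.

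H2-Oa (ENSMUSG00000024334, chromosome 17, 34311314 to 34314208), the alpha chain of H2-O, had the fewest reads of the 10 genes, 50 and 51 in the knockouts, 30 in Hez and 61 in wild type. Its level was 2.17 and 2.29 FPKM in the knockouts, 1.29 in Hez and 2.69 in wild type. Wild type was highest and Hez lowest, and the Poisson intervals of the knockouts, 1.61 to 2.86 and 1.70 to 3.005 FPKM, overlapped that of wild type, 2.06 to 3.46. The log2 fold was -0.26 against wild type (SE 0.403) and 0.79 against Hez (SE 0.441), with edgeR adjusted p = 0.996 and 0.9997. The ratio of the summed H2-DM genes to the summed H2-O genes in FPKM was 4.12 and 6.08 in the knockouts, 5.18 in Hez and 4.66 in wild type. The knockout libraries thus lay on either side of both other libraries.

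Per length, the 10 genes kept nearly one order of levels in the 4 libraries. Cd74 came first, followed by H2-Eb1, then H2-Aa and H2-Ab1, which changed places between libraries. H2-DMb1 came next, then H2-DMa and H2-DMb2, which also changed places, then H2-Ob, Ciita and H2-Oa. Levels between genes rest on the gene lengths of the deposited table, 1407 bases for H2-Oa and 9535 bases for Ciita.

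Hez was compared with wild type as 1 library against 1, with no test. All 10 genes were lower in Hez, where 50.4% of the genes tested were, with a median log2 difference of -0.18 against -0.0023 over all genes. The differences were small in 9 genes, from -0.06 for H2-DMb1 to -0.27 for H2-DMa. Cd74 differed by -0.18 and Ciita by -0.24. Past a fold of 1.5, 1 of the 10 genes was lower, H2-Oa at -1.004, from 30 reads against 61, beside 6.84% of all genes, and 0 of 10 were higher, beside 2.8%. Hez lay between the knockouts and wild type in Dnah9, and its class II sum lay below those of the knockouts and wild type. A relation of class II levels to Dnah9 was not tested.

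The wider class II pathway was counted in lists of known members. In every list described here 0 genes passed the adjusted threshold in edgeR in either direction, against wild type and against Hez. Counts without adjustment are of genes with p below 0.05. Over all genes tested, 5.18% had such a p in either direction against wild type and 4.61% against Hez. The DNA-binding partners of Ciita, 7 genes of RFX, NF-Y and CREB, had a median log2 fold of 0.11 against wild type and -0.0061 against Hez, with 0 of 7 past the unadjusted threshold in both. Nfya, an NF-Y subunit, stood at 10.3 and 10.3 FPKM in the knockouts, 9.56 in Hez and 9.26 in wild type (log2 fold 0.17 against wild type, SE 0.101). Rfxap, an RFX subunit, stood at 7.84 and 7.93 FPKM in the knockouts, 6.87 in Hez and 6.56 in wild type (log2 fold 0.28, SE 0.186). Neither was lowest in Hez. A relation of these partners to the levels of Ciita or the class II genes was not tested.

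Interferon gamma is the main inducer of Ciita outside professional antigen-presenting cells. Ifng itself had 0 and 3 reads in the knockouts, 2 in Hez and 0 in wild type, which was below the filter. The 8 tested genes of its axis had a median log2 fold of 0.11 against wild type and 0.03 against Hez, with 0 of 8 past the unadjusted threshold. Jak1, a receptor-bound kinase, stood at 44.1 and 42.0 FPKM in the knockouts, 42.0 in Hez and 39.9 in wild type (log2 fold 0.12, SE 0.0941). The part of this axis in the Ciita values was not tested.

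Among 11 genes of endosomal processing and class II turnover, the median log2 fold was 0.04 against wild type and 0.13 against Hez, and 1 gene was past the unadjusted threshold in each. That gene was Ctss, cathepsin S, the protease that trims the invariant chain. It stood at 129 and 124 FPKM in the knockouts, 92.8 in Hez and 108 in wild type, with both knockouts highest and Hez lowest. Its log2 fold was 0.24 against wild type (SE 0.102, edgeR adjusted p = 0.954) and 0.45 against Hez (SE 0.103, edgeR adjusted p = 0.65). Lgmn, the protease legumain, stood at 58.6 and 59.9 FPKM in the knockouts, 51.0 in Hez and 53.5 in wild type (log2 fold 0.16 against wild type, SE 0.101).

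The 7 genes of costimulation and the CD4 partner had a median log2 fold of 0.13 against wild type and 0.24 against Hez, with 0 and 1 past the unadjusted threshold. Cd40, the receptor by which T cells license antigen-presenting cells, stood at 7.65 and 6.90 FPKM in the knockouts, 6.85 in Hez and 6.09 in wild type. Lag3, an inhibitory receptor for class II on T cells, stood at 0.781 and 1.02 FPKM in the knockouts, 0.745 in Hez and 0.559 in wild type. The log2 folds against wild type were 0.27 (SE 0.168) and 0.69 (SE 0.583). In the class II region, H2-Eb2 stood at 1.69 and 1.32 FPKM in the knockouts, 1.07 in Hez and 0.897 in wild type, with a log2 fold of 0.76 against wild type (SE 0.382, edgeR adjusted p = 0.996). Its reads may be shared with its paralog H2-Eb1. Brd2 stood at 31.7 and 37.5 FPKM in the knockouts, 33.3 in Hez and 31.2 in wild type (log2 fold 0.16 against wild type, SE 0.117). With Btnl2, 3 genes of the region were tested, and 0 of 3 passed the unadjusted threshold.

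Class I presentation, which displays peptides made inside the cell, was described beside class II. All 12 of its genes had positive log2 folds against wild type, where 51.1% of all genes did, but the folds ran from 0.004 to 0.33. Both knockout libraries lay above wild type in 9 of 12, against 33% of all genes. The median log2 fold was 0.10, below the 0.26 of the class II genes, and 2 of 12 were past the unadjusted threshold. Against Hez 11 of 12 folds were positive, where 52.5% of all genes were. The median there was 0.19, below the 0.42 of the class II genes, and the same 2 of 12 genes were past the unadjusted threshold. They were Calr and Pdia3, chaperones of glycoprotein folding. Calr stood at 223 and 197 FPKM in the knockouts, 161 in Hez and 168 in wild type (log2 fold 0.33, SE 0.102, edgeR adjusted p = 0.677). Pdia3 stood at 189 and 198 FPKM in the knockouts, 165 in Hez and 165 in wild type (log2 fold 0.24, SE 0.0828, edgeR adjusted p = 0.784). The summed level of the class I list was 4149 and 4321 CPM in the knockouts, 3673 in Hez and 3777 in wild type. The difference between the 2 lists was not tested.

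Markers of the cells that carry class II, and of T cells listed beside them, moved with the class II genes in part. The part of these cells in the class II values was not tested. The 11 dendritic cell markers summed to 255 and 274 CPM in the knockouts, 242 in Hez and 233 in wild type, with positive log2 folds against wild type in 7, negative ones in 4 and a median of 0.07. The 10 alveolar macrophage markers summed to 1145 and 1449 CPM in the knockouts, 869 in Hez and 895 in wild type. Most of that sum was Chil3, a secreted chitinase-like protein, at 712 and 1018 CPM in the knockouts, 524 in Hez and 509 in wild type. The other 9 summed to 432 and 431 CPM in the knockouts, 345 in Hez and 386 in wild type, so without Chil3 knockout 2 stood at 112% of wild type, against 162% with it. The 10 markers of monocytes and interstitial macrophages summed to 451 and 436 CPM in the knockouts, 369.9 in Hez and 400.1 in wild type. Their log2 folds against wild type were positive in 7 and negative in 3, with a median of 0.18. The 10 alveolar type 2 cell markers summed to 31862 and 30492 CPM in the knockouts, 27778 in Hez and 27086 in wild type, and the 7 T cell markers in the table to 53.9 and 43.3 CPM in the knockouts, 47.2 in Hez and 40.9 in wild type. Among these lists the monocyte list shared the order of the class II sum between groups, with Hez lowest and both knockouts highest, as did the alveolar macrophage list. In the alveolar type 2, dendritic and T cell lists wild type was lowest. No marker was at 0 in all 4 libraries.

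Some single markers were past the unadjusted threshold. Itgax, the CD11c integrin chain of dendritic cells and alveolar macrophages, stood at 14.8 and 16.3 FPKM in the knockouts, 11.4 in Hez and 12.5 in wild type (log2 fold 0.33 against wild type, SE 0.111, edgeR adjusted p = 0.781). Ccr7, the receptor that guides dendritic cells to lymph nodes, stood at 9.57 and 9.18 FPKM in the knockouts, 6.23 in Hez and 6.43 in wild type (log2 fold 0.55, SE 0.194, edgeR adjusted p = 0.812). Cd68, a lysosomal protein of macrophages, stood at 44.5 and 40.9 FPKM in the knockouts, 30.8 in Hez and 35.4 in wild type (log2 fold 0.28, SE 0.122, edgeR adjusted p = 0.955). Chil3 was the 1 alveolar macrophage marker past it against wild type (log2 fold 0.76, SE 0.181, edgeR adjusted p = 0.445). These 4 were named after their values were seen, as was Cd79a. Of the dendritic cell markers, Zbtb46, Xcr1, Clec10a and Batf3 had negative log2 folds against wild type. So did C1qa, C1qb and C1qc of the monocyte markers. Against wild type 3 of 11 dendritic cell markers, 1 of 10 alveolar macrophage markers, 1 of 10 monocyte markers, 1 of 10 B cell markers, 0 of 7 T cell markers and 8 of 10 alveolar type 2 markers were past the unadjusted threshold and higher, where 1.81% of all genes were. Against Hez these counts were 2 of 11, 5 of 10, 5 of 10, 2 of 10, 0 of 7 and 6 of 10 in the same order of lists, where 2.5% of all genes were. Past the threshold and lower against wild type were 0 markers in each list, where 3.37% of all genes were. Against Hez 1 dendritic cell marker was, and 0 in the other lists, where 2.11% of all genes were. That marker, Siglech, had a log2 fold of -0.90 (SE 0.312). It stood at 1.39 and 1.17 FPKM in the knockouts, 2.39 in Hez and 1.21 in wild type.

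**Figure D4:**
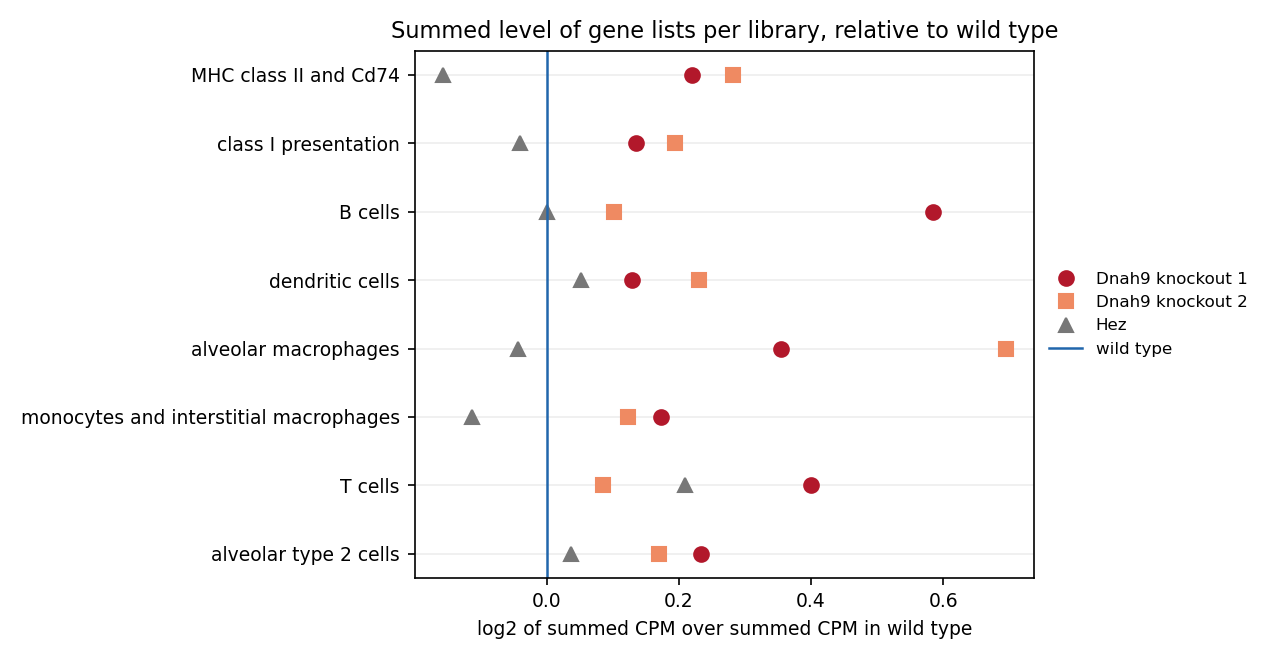
Log2 of the summed CPM of each gene list in knockout 1, knockout 2 and Hez over its sum in the wild-type library (line at 0). The class II sum lies at 0.22 and 0.28 in the knockouts and -0.16 in Hez, and the B cell sum at 0.58 and 0.10 in the knockouts and 0.00031 in Hez.

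The genes whose profile over the 4 libraries came nearest to the mean profile of the 10 were sought among 10600 other genes with a mean of 10 CPM or more. Likeness was the root mean square distance of centred log2 CPM. The nearest were Ripk4 (distance 0.00984), a kinase gene, Cfp (0.016), which encodes the complement regulator properdin, AI467606 (0.016), Mpeg1 (0.0194), which encodes a pore-forming protein of macrophages, and Cwf19l1 (0.0208). Mpeg1 stood at 281 and 269 CPM in the knockouts, 205 in Hez and 240 in wild type, and Cfp at 24.9 and 24.2 CPM in the knockouts, 18.5 in Hez and 21.6 in wild type. With 4 libraries many genes share a profile: 363 of the 10600 lay within a distance of 0.1. Of the members themselves, Cd74 lay nearest to the mean profile, at 0.034, and H2-Oa and H2-Ob farthest, at 0.27 and 0.219.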

How the data were processed

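Lung RNA libraries came from a TruSeq RNA kit and were run on the HiSeq 2000 of Illumina, as the labels' protocols state. The table holds raw read counts per gene and FPKM values, both deposited by the authors, per the file headers. All 66024 FPKM values above 0 equal the count divided by gene length and library total, to a relative 1e-06. The submitters' processing notes name build GRCm39, and promoter sequences are from RefSeq on GRCm38.p6. No aligner, counting tool, annotation release or strand setting is named (not given in the sources used here).

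Groups follow the genotype labels. Replicate numbers follow sample order, and p-values measure the spread between these libraries, which may be technical. Every pair of libraries differed beyond sampling noise. The chi-square per gene was 10.3 between the knockouts, more than the 8.23 and 8.68 of knockout 1 against Hez and wild type. Counts were filtered with filterByExpr (minimum count 10), scaled by TMM and tested with edgeR 4.0.16 under R 4.3.3 (quasi-likelihood, two-sided, Benjamini-Hochberg over all genes). The fit to 3 groups had 1 residual degree of freedom, and the fit to knockouts against wild type and Hez together had 2, so standard errors (fold over the root of F) draw largely on other genes. The lone libraries are assumed to vary like the knockout pair. The scripts were tested on simulated counts. Alternatives used DESeq2 1.42.0, limma 3.58.1, other scalings, filters and pseudocounts (0.1, 0.5 or 1 on FPKM), and each library left out. Poisson intervals and floors (3 counts) cover counting error only. The members and lists were chosen with earlier results of these data known. All members are named, and of each pathway list the 2 genes with the smallest p against wild type, except 1 gene that is not reported here.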

Additional observations from a re-analysis of the deposited data

How the results depend on the processing

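With the knockouts against wild type and against Hez, 0 members passed the adjusted threshold under every alternative run. Against both together the count was 1 with the DESeq2 Wald test (Cd74) and 0 otherwise. That test called 34 genes in all in this comparison, where edgeR called 2 and limma-voom 1. DESeq2 gave H2-Oa no adjusted p against wild type and against both together. Without a knockout library the comparisons with a lone library have no residual degrees of freedom and give values with no test. The count at an unadjusted p below 0.05 and the count above both other libraries were chosen after seeing the data. Against wild type the unadjusted count was 3, and 1 with DESeq2 and with limma on log2 FPKM at each pseudocount (0.1, 0.5, 1), and 0 with limma and no filter; without Hez it was 4. Against Hez it was 8, and 5 with DESeq2 and with limma on FPKM and no filter. Against both together it was 7, and 4 to 7 with a library left out, the lowest without Hez.

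The median log2 fold against wild type was 0.26, and 0.18 to 0.27 with a library left out, the lowest without knockout 2. Against Hez it was 0.42, and 0.38 at a mean of at least 10 CPM, where H2-Oa was not tested, and 0.41 to 0.44 with a library left out. Against both together it was 0.29, and 0.25 to 0.41 with a library left out, the highest without wild type. Reversals were limited to the H2-O genes: H2-Ob ranged from -0.0798 without knockout 1 to 0.53 without knockout 2 against wild type, and from -0.0379 to 0.57 against both together, and H2-Oa from -0.26 without Hez to 0.78 without wild type against both together. The cause was not tested. The count of 8 members above both other libraries was 7 with library totals only. With a library left out it was 8 to 10, but leaving a library out can only keep or raise this count. No paired analysis was possible because the labels give no replicate numbers. The 30 to 61 reads of H2-Oa limit what can be said of it.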
